A study of Caenorhabditis elegans with 2 samples.

Results

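The 6 eef genes of Caenorhabditis elegans encode the cytosolic factors that carry peptide elongation through its cycle, and the data describe where the germline factor OEF-1 was recovered near them. They are eef-1A.1, eef-1A.2, eef-1B.1, eef-1B.2, eef-1G and eef-2, 6 of 19973 protein-coding genes on the nuclear chromosomes. The members were chosen by symbol, as the WBcel235 coding genes whose names start with eef-, and singled out with their summits in these same lists already known. The distance, signal and rank of those summits are therefore given as descriptions, without a test. In the list of reproducible peaks, which the authors call optimal, 5 of the 6 genes had a summit within 1000 bp of the 5' end, and eef-1A.2 on the X chromosome had none. Across all protein-coding genes the same call was made for 5.28%. At 4 of the 6 genes another optimal summit lay within 250 bp of the 3' end. Any summit there was found at 2.52% of all coding genes and 17.0% of those with a summit at the 5' end. The 17.0% includes short genes whose 1 summit counts at both ends. Separate summits at both ends were found at 116 of the 19973 coding genes.

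The samples were 2 biological replicates, numbered 3 and 4, of whole hermaphrodites of strain OP383 collected as L4 larvae at 52 h after synchronization as starved L1 larvae. Both carry the unc-119(tm4063) mutation and the integrated transgene wgIs383, from which OEF-1 (F49E8.2) is made with GFP and FLAG at its C terminus. Chromatin was sheared by sonication and precipitated with an antibody against GFP. There is 1 group, untagged animals were not analysed here, and whole animals mix germline with soma, so a summit cannot be placed in a cell type.

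In elongation, eEF1A is the GTPase that brings aminoacyl-tRNA to the ribosome, and the eEF1B complex recharges it with GTP. The genes eef-1A.1 and eef-1A.2 encode eEF1A, eef-1B.1 and eef-1B.2 encode exchange subunits of eEF1B, and eef-1G encodes its gamma subunit. The eEF2 protein, made from eef-2, is the GTPase that moves the ribosome along the mRNA by a codon. These factors are among the most abundant proteins of growing cells, and a growing germline depends on them for the mass of its oocytes.

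The sequences are shown so that the paralogues with and without an optimal summit can be read side by side. Whether they bear on the difference was not tested. In all, 4 windows contain an optimal summit, and the other is the stretch before the 5' end of eef-1A.2, which has none. They were read from the RefSeq copy of WBcel235 (the assembly of ce11) on the strand of each gene, with annotated exons of coding genes left out. The windows are chrIII:6972009-6972209 (minus strand), chrX:7823454-7823653 (plus), chrIII:7973387-7973540 (minus), chrIV:15037080-15037280 (plus) and chrV:10965588-10965718 (plus). Each of those 4 windows starts 100 bp before its optimal summit, in the direction of the gene. The window of eef-2, which also has an optimal summit near its 5' end, is not printed. Capitals mark matches to 5 short motifs on either strand, which were GGCGCA and its near relative GCGCCA, then ACGCGC, then CCGCCC, and the TATA-box core TATAAA.
eef-1A.1: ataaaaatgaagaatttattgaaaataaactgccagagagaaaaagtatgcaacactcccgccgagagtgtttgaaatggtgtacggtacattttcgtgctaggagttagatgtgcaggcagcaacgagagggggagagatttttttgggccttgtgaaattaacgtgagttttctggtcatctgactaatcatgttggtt
eef-1A.2: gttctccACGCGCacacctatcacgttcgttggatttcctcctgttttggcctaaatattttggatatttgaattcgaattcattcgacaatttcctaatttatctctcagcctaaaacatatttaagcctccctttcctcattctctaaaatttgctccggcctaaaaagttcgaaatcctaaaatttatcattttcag
eef-1B.1: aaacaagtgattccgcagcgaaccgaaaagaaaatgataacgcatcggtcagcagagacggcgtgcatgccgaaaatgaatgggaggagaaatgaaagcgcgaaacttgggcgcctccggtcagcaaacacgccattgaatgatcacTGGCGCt
eef-1B.2: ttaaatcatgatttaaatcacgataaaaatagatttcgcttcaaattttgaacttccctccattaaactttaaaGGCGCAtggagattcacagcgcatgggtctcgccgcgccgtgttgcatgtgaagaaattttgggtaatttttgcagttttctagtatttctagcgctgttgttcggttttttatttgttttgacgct
eef-1G: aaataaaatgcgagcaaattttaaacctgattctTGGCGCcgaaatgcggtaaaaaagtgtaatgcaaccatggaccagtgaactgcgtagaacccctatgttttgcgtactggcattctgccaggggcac

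The window of eef-1A.1 held none of the 5 motifs. The windows of eef-1B.1 and eef-1G held GCGCCA, read on the other strand as TGGCGC, and that of eef-1B.2 held GGCGCA. The window of eef-1A.2, the gene without an optimal summit, held ACGCGC. These 3 motifs were picked because they were frequent at summits in earlier results of these data, and matches to GGCGCA on a strand can overlap matches to GCGCCA on the other. Within 50 bp of the summit, GGCGCA was present at 1 of the 5 eef summits near 5' ends (eef-1B.2), against 14.04% of the 1318 nuclear optimal summits. GCGCCA was present at 1 of 5 (eef-2), against 11.2%, and ACGCGC at 0 of 5, against 10.9%. CCGCCC and TATAAA were in none of the 5 windows, against 3.95% and 7.44% of all summits. In the region from 250 bp before to 50 bp after the 5' end, TATAAA was found at 3 of the 6 genes and in 37.9% of all promoters, GCGCCA at 3 of 6 and in 5.08%, GGCGCA at 2 of 6 and in 5.72%, ACGCGC at 1 of 6 and in 5.92%, and CCGCCC at 0 of 6 and in 7.83%. The GC content within 50 bp of the 5 summits ran from 46.5% at eef-1B.2 and eef-1G to 54.5% at eef-1B.1, against a median of 44.6% for all nuclear optimal summits.

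The lists behind the values are peak calls. The optimal list held 1318 nuclear peaks, the pooled candidate list 29979, that of replicate 3 29982 and that of replicate 4 23577, and the candidate lists contain weak peaks on purpose. Each peak has a signal value from the authors on a scale that is not stated, so signals are compared within a list and lists are set side by side by rank, with rank 1 the strongest nuclear peak. The read depth behind them is unknown. The replicates differed in their share on X, with 11.95% of the nuclear candidates of replicate 4 and 5.96% of those of replicate 3. The weakest nuclear peak of the optimal list had a signal of 74.04, and the strongest nuclear pooled candidate outside it also rounded to 74.04. The weakest eef gene counted, eef-1B.2 at 77.2, lay just inside this limit, and eef-1A.2, at 19.98, far outside. Values given for a gene below are those of its strongest summit within 1000 bp, which in the optimal list was also the nearest for all 5 genes. In the other lists a weaker candidate was sometimes nearer, and those cases are given where they occur.

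**Figure D1:**
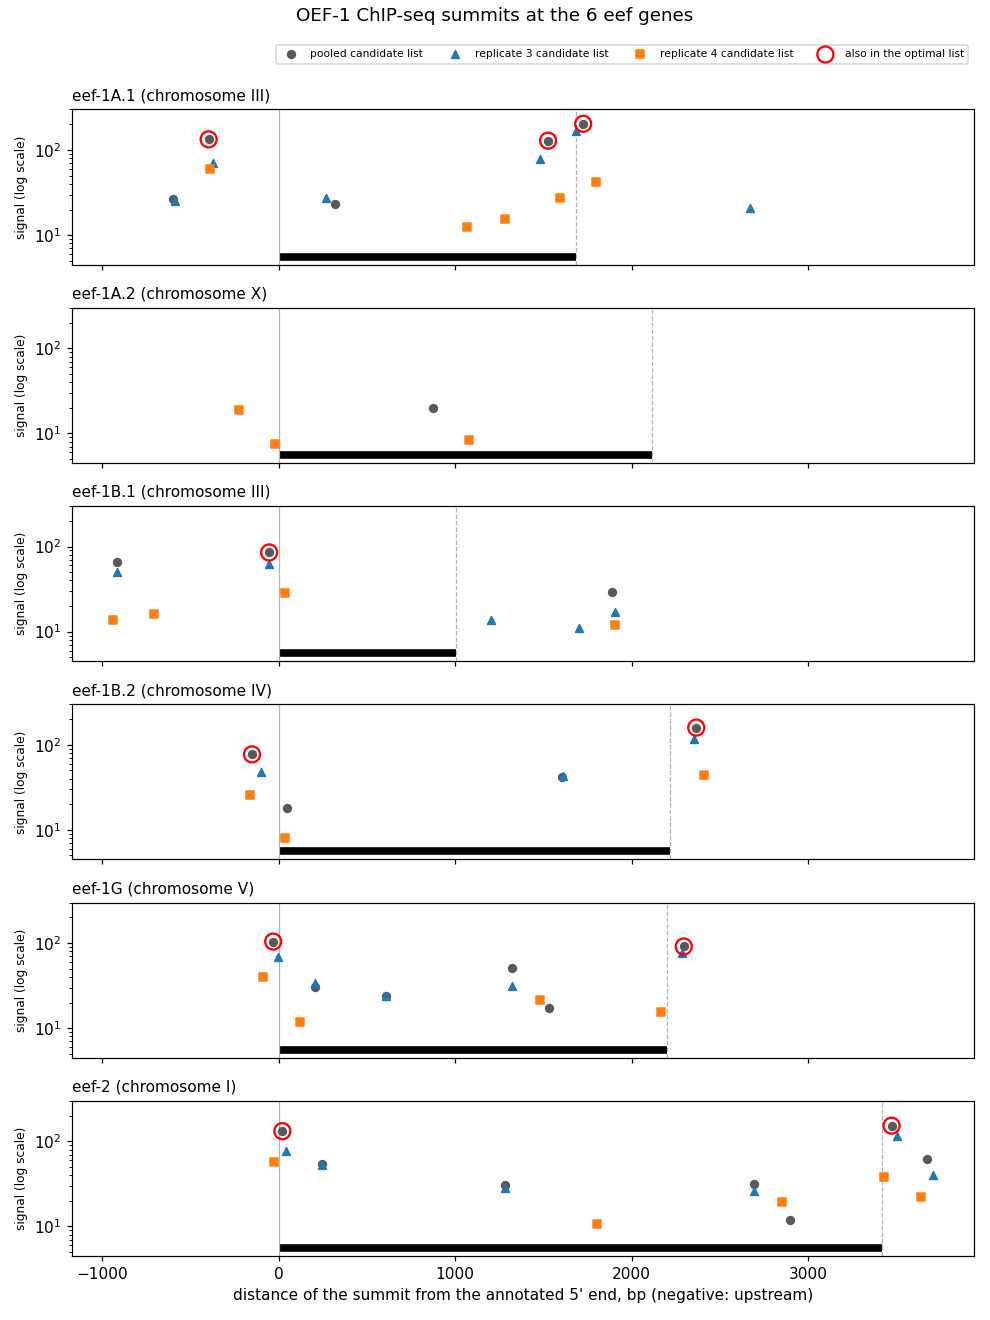
Summits of the 3 candidate lists at each eef gene, by distance from the annotated 5' end in bp (negative is upstream) and by the authors' signal on a log axis. The black bar is the gene, the dashed line its 3' end, and red circles mark pooled summits that are also in the optimal list. A reader should see circled summits beside both ends of eef-1A.1, eef-1B.2, eef-1G and eef-2, beside the 5' end alone at eef-1B.1, and none at eef-1A.2.

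The eEF1A genes had the highest and the lowest pooled signal of the 6. At eef-1A.1 (WBGene00001168, chromosome III, 6970026 to 6971712, minus strand), the optimal summit lay at 6972109, 397 bp upstream of the 5' end and outside coding genes, in a narrow peak from 6972040 to 6972185. Its signal was 134 in the pooled and optimal lists, 71.04 in replicate 3 and 60.2 in replicate 4. The site was among the stronger ones in both replicates, at rank 365 in the optimal list, 781 in replicate 3 and 94 in replicate 4. Among the 8398 coding genes with any candidate within 1000 bp in replicate 4, eef-1A.1 was in place 91.

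The copy on X, eef-1A.2 (WBGene00001169, X, 7823654 to 7825769, plus strand), had no optimal summit nearer than 29.0 kb to its 5' end. Replicate 3 had no candidate within 1000 bp. Replicate 4 had a candidate 224 bp upstream with a signal of 18.6 (rank 2456) and another 19 bp upstream with 7.42 (rank 22252), and the pooled list held one 873 bp inside the gene, in coding sequence, with 19.98 (rank 14574). The replicates therefore do not give the same site at this gene, and neither puts it among its 1318 strongest nuclear peaks. On X, 27 of 2731 coding genes (0.989%) had an optimal summit within 1000 bp, against 1027 of 17242 on the autosomes (5.96%). Most coding genes share this lack, on X and on the autosomes. The order of the pair was planned on the nearest summit in the pooled list, and by that measure the signal of eef-1A.1 was 1.17 times that of eef-1A.2. The nearest pooled summit of eef-1A.1 is a weak candidate 321 bp inside the gene, in coding sequence (signal 23.4, rank 10963), and not the optimal summit upstream. With the strongest summit in its place the ratio was 6.69. In replicate 4 the nearest summits gave 8.10 and the strongest 3.23, and in replicate 3 no ratio could be formed. eef-1A.1 was ahead by each of these measures, while the size of its lead depended on the summit taken. The larger ratios rest on its upstream summit, which was nearer to the 5' end of rfc-4 (144 bp) than to that of eef-1A.1 (397 bp). In replicate 4 that was the only candidate within 1000 bp of eef-1A.1. With each summit given to its nearest coding gene, eef-1A.1 keeps no candidate within 1000 bp in replicate 4. There eef-1A.2 keeps the candidate 224 bp upstream (signal 18.6), so by that measure eef-1A.1 is not ahead in replicate 4. In the pooled list eef-1A.1 keeps the weak candidate 321 bp inside the gene, and the ratio stays at 1.17.

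The paralogues encode the same protein. The translated coding sequences of eef-1A.1 and eef-1A.2 were identical at 463 of 463 residues, and their coding sequences at 1305 of 1389 bases (93.95%). Within 100 bp of either 5' end, and of the eef-1A.1 summit, every 36-base stretch occurred once in the genome, as did every stretch of 25 and of 50 bases. In the coding exons 92.6% of 36-base stretches of eef-1A.1 and 92.8% of those of eef-1A.2 were unique. At 25 bases the shares were 78.2% and 78.6%, and at 50 bases 99.8% for both. The read length is not stated, so how far candidates inside the coding sequence, such as the one 873 bp into eef-1A.2, rest on shared sequence was not tested, while the windows around the 5' ends hold no repeated stretch of these lengths. No label or header used here says how reads with several matches were treated.

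The exchange factor genes both had a modest summit close to the 5' end. At eef-1B.1 (WBGene00018846, chromosome III, 7972382 to 7973386, minus strand), the optimal summit lay at 7973440, 54 bp upstream and outside coding genes. Its signal was 85.3 in the pooled list (rank 984), 61.8 in replicate 3 (rank 1039) and 28.1 in replicate 4 (rank 887). In replicate 4 the summit was 34 bp inside the gene, in the 5' UTR. A pooled candidate 914 bp upstream, in an intron of the neighbouring gene aco-2, had a signal of 66.3 and was below the optimal limit.

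At eef-1B.2 (WBGene00012768, chromosome IV, 15037331 to 15039551, plus strand), the optimal summit lay at 15037180, 151 bp upstream. Its signal was 77.2 in the pooled list (rank 1200), 47.9 in replicate 3 (rank 1637) and 25.4 in replicate 4 (rank 1142). It was the weakest of the 5, and in replicate 3 it was not among the top 1318. By the planned measure, the nearest summit in the pooled list, the signal of eef-1B.1 was 4.74 times that of eef-1B.2, where a weak candidate 49 bp inside the gene (signal 18.0, rank 17369) was the nearest. The strongest summits gave 1.10. In replicate 3 both measures gave 1.29, and in replicate 4 the nearest gave 3.54 and the strongest 1.11. eef-1B.1 was ahead each time, and the margin was not tested. These proteins are less alike than the eEF1A pair, with 150 identical residues between chains of 213 and 263, the isoforms that align best.

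The gamma subunit gene eef-1G (WBGene00008920, chromosome V, 10965719 to 10967922, plus strand) had its optimal summit at 10965688, 31 bp upstream. The signal was 104 in the pooled list (rank 646), 69.3 in replicate 3 (rank 832) and 40.2 in replicate 4 (rank 354). It was among the top 1318 peaks of each replicate. Inside the gene a weaker pooled candidate 1321 bp from the 5' end had a signal of 51.6 (rank 2369) and lay in coding sequence, 125 bp from the snoRNA gene F17C11.15. Another at 1533 bp (17.1, rank 18870) lay 238 bp from the snoRNA gene F17C11.14. No tRNA, snoRNA or snRNA gene lay within 250 bp of the strongest optimal summit at either end of the eef genes.

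The translocase gene eef-2 (WBGene00001167, chromosome I, 9163531 to 9166952, plus strand) was marked at 9163552, which lies 21 bp inside the gene within its 5' UTR. The signal was 132 in the pooled list (rank 382), 76.2 in replicate 3 (rank 660) and 56.6 in replicate 4 (rank 120). These ranks were close to those of eef-1A.1 in each list. By the sum of absolute differences in log10 rank over the pooled and replicate lists, taken on the strongest summit within 1000 bp, eef-2 was among the 5 coding genes most like eef-1A.1 (0.199), after rfc-4 (0, the same peak), Y25C1A.8, Y38E10A.24 and Y38E10A.22. Measured on the nearest summit, as the rule for named genes asked, the 5 most alike were rfc-4, prp-19, tebp-2, sec-61.B and Y56A3A.7. The first ranking, by the strongest summit, was added after the data were seen. In replicate 3, too, the nearest candidate to eef-1A.1 was a weak one inside the gene, at 267 bp (signal 27.3, rank 4619).

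Taking each replicate's 1318 strongest nuclear peaks, the 5' end was marked at 4 eef genes in replicate 3, where 5.24% of coding genes were, and at 5 in replicate 4, where 5.47% were. The gene missing from replicate 3 was eef-1B.2. In the whole pooled candidate list all 6 genes had some summit within 1000 bp, as did 45.0% of coding genes. All 5 marked genes ranked higher in replicate 4 than in replicate 3, while 469 of 1045 coding genes with an optimal summit (44.9%) did. At the 3' ends described below it was the reverse, with 0 of 4 eef genes ranked higher in replicate 4, against 162 of 457 coding genes (35.4%). The lists differ in length, and as a share of its list eef-1B.1 stood slightly lower in replicate 4 (3.76%) than in replicate 3 (3.47%). None of these differences was tested.

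**Figure D2:**
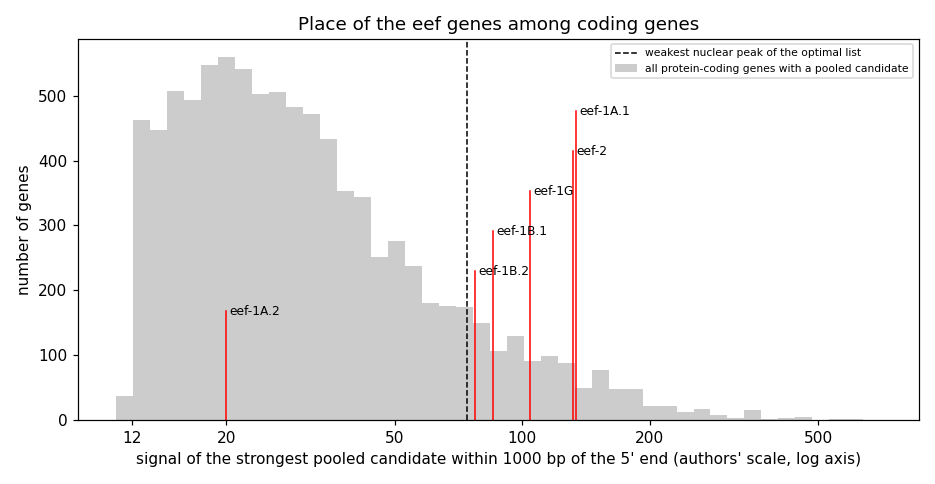
Number of protein-coding genes by the signal of the strongest pooled candidate within 1000 bp of the 5' end (log axis, authors' scale), with a red line for each eef gene; line heights carry no value. The dashed line is the weakest nuclear peak of the optimal list. Among 8982 genes with a candidate, eef-1A.1 was in place 327 and eef-2 in place 346, eef-1G in place 569, eef-1B.1 in place 819, eef-1B.2 in place 975 and eef-1A.2 in place 6212.

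Most of these summits also lay within 1000 bp of the 5' end of a divergent coding neighbour, so the peak can belong to either gene. The eef-1A.1 summit was nearer to rfc-4, a subunit gene of the replication clamp loader, than to eef-1A.1 (144 bp against 397 bp), and the 5' ends of the genes were 541 bp apart. The hairpin gene cel-mir-5549 also began 24 bp from that summit. At eef-1B.1 the neighbour was aco-2, of mitochondrial aconitase, with its 5' end 277 bp from the summit, and the noncoding RNA gene F54H12.9 began 113 bp from it. At eef-1G the neighbour was ctf-4, related to a replisome factor, 149 bp away, and at eef-2 it was clsp-1, the claspin gene of the replication checkpoint, 286 bp away. At these 3 genes the summit was nearer to the eef gene.

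The summit of eef-1B.2 had no other 5' end within 1000 bp. The gene before it on the same strand, fcd-2, of the Fanconi anaemia repair pathway, ended 295 bp upstream of its 5' end. An opposite-strand coding 5' end within 1000 bp upstream was thus present at 4 of the 5 marked eef genes. The same arrangement was found at 433 of 1054 coding genes with an optimal summit (41.1%) and at 3539 of all 19973 (17.7%). The remaining eef gene, eef-1A.2, had sek-1 as its upstream neighbour, which ended 2618 bp away on the same strand.

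Optimal summits also lay at the far end of 4 eef genes, a comparison added after the data were seen. Within 250 bp of the 3' end there was a summit at eef-1A.1, eef-1B.2, eef-1G and eef-2, which is 4 of 6, against 2.52% of coding genes. Of coding genes with an optimal summit within 1000 bp of the 5' end, 17.0% had one at the 3' end as well. Short genes can count 1 summit at both ends. Among the genes longer than 1500 bp, 4 of 5 eef genes had separate optimal summits at both ends, and 71 of 13049 coding genes (0.544%) did. The only eef gene left out by this length limit is eef-1B.1 (1005 bp), which had an optimal summit at the 5' end and none at the 3' end. The pattern was noticed in these same lists and was not tested.

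At eef-1A.1 the strongest of these summits lay at 6969986, 40 bp past the 3' end, with a signal of 204 in the pooled list (rank 112), 167 in replicate 3 (rank 80) and 42.6 in replicate 4 (rank 298). A further optimal summit in the same interval lay at 6970185, within the coding sequence of eef-1A.1, with a signal of 129. The gene overlaps the end of the convergent coding gene F31E3.12 by its own 3' end, and the stronger summit was in the coding sequence of that neighbour. At eef-2 the summit lay at 9167005, 53 bp past the 3' end and outside coding genes, with a signal of 153 in the pooled list (rank 257), 114.8 in replicate 3 (rank 244) and 38.1 in replicate 4 (rank 417). The next coding 5' end, that of pyk-1, was 1427 bp from this summit, so no annotated coding promoter lay beside it.

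At eef-1B.2 the summit lay at 15039698, 147 bp past the 3' end, with a signal of 159 in the pooled list (rank 224), 116 in replicate 3 (rank 236) and 44.7 in replicate 4 (rank 257). It was 82 bp inside hrpu-1, an hnRNP-type gene on the same strand, whose 5' end lies 65 bp after eef-1B.2, so here the summit can equally be read as the start of hrpu-1. At eef-1G the summit lay at 10968015, 93 bp past the 3' end and in the coding sequence of the convergent gene F17C11.22. Its signal was 91.2 in the pooled list (rank 878), 75.6 in replicate 3 (rank 670) and 15.3 in replicate 4 (rank 4124), where it was not among the top 1318. The 3' end was marked in the top peaks of replicate 3 at 4 eef genes (2.56% of coding genes) and of replicate 4 at 3 (2.32%). At eef-1B.1 replicate 3 alone had a candidate near the 3' end, a weak one (signal 13.8, rank 17136), and at eef-1A.2 no list had one.

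**Figure D3:**
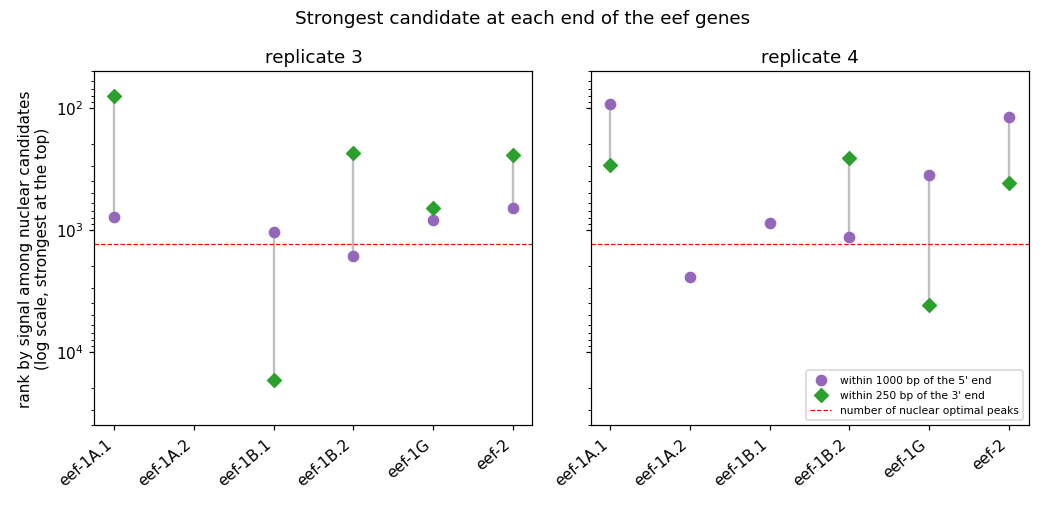
Rank by signal of the strongest candidate within 1000 bp of the 5' end (circles) and within 250 bp of the 3' end (diamonds) of each eef gene, in each replicate, on a log axis with the strongest at the top. The dashed line is rank 1318, the number of nuclear optimal peaks, and a missing symbol means no candidate. In replicate 3 the diamond is above the circle at eef-1A.1, eef-1B.2, eef-1G and eef-2, and in replicate 4 at eef-1B.2 alone.

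The order of the ends differed between the replicates. In replicate 3 the 3' summit was the stronger at 4 of these 4 genes, from 1.09 times the 5' signal at eef-1G to 2.42 times at eef-1B.2. In replicate 4 it was the stronger at 1 of 4, eef-1B.2 (1.76 times), and was 0.708 times the 5' signal at eef-1A.1, 0.673 times at eef-2 and 0.381 times at eef-1G. Over all coding genes with separate optimal summits at both ends, the 3' summit was the stronger at 42 of 114 in replicate 3 (36.8%) and at 26 of 102 in replicate 4 (25.5%). With 1 library on each side, the difference between replicates cannot be tested.

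GC content separated the ends at some genes. Within 50 bp of the 3' summit it was 33.7% at eef-1A.1 and 36.6% at eef-1G, against 50.5% and 46.5% at their 5' summits. At eef-2 it was 43.6% against 47.5% at the 5' summit. At eef-1B.2 the 3' summit had the slightly higher value, 47.5% against 46.5%. None of the 5 motifs was present within 50 bp of the 4 summits at 3' ends. Every 36-base stretch within 100 bp of these summits occurred once in the genome.

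Other genes of elongation, with some related genes, were examined as a list. Of 26 symbols listed for the wider pathway (stalk proteins, modifying enzymes, release factors and mitochondrial factors), 20 matched a coding gene, and 4 of these (20%) had an optimal summit within 1000 bp of the 5' end, against 5.28% of all coding genes. They were rla-1, of the ribosomal stalk that recruits elongation factors (signal 164, rank 210, 161 bp inside the gene), tct-1, whose product is a partner of eEF1A (159, rank 227), iff-1, an eIF5A gene (92.5, rank 844), and gfm-1, a mitochondrial elongation factor gene (88.6, rank 920, 186 bp upstream). The tct-1 summit was nearer to the 5' end of F25H2.12, at 41 bp. The other stalk genes, rla-0 and rla-2, and the mitochondrial factor genes tufm-1, tufm-2 and tsfm-1 had none. Nor did the release factor genes erfa-1 and erfa-3, or the eEF2 kinase gene efk-1. The diphthamide genes dph-1, dph-2 and dph-3 and the other eIF5A gene, iff-2, also had none. The 20 genes further include dhps-1, whose product modifies eIF5A, and the ribosome rescue gene hbs-1. They also include GTPase genes related to eef-2 that are not elongation factor genes, eftu-2 of the spliceosome and K10C3.5 of ribosome assembly. None of these had an optimal summit within 1000 bp either.

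Other translation genes give a setting for these counts. Of 81 cytosolic ribosomal protein genes, a list that shares the rla- genes with the one above, 47 (58.02%) had an optimal summit within 1000 bp of the 5' end, with a median signal of 136, against 104 at the 5 eef genes and 109 over all 1054 marked genes. At the 3' end 51 of the 81 (62.96%) had one within 250 bp, and 19 had separate summits at both ends. The median ribosomal protein gene is 754 bp long, so a reach of 1000 bp from the 5' end often takes in the 3' end. With a reach of 500 bp, 30 of the 81 were marked at the 5' end, as were 772 of all 19973 coding genes, while the eef count stayed at 5. Of 34 initiation factor genes 4 (11.8%) were marked at the 5' end and 6 (17.6%) at the 3' end. The initiation list shares iff-1 and iff-2 with the pathway list, and the marked gene iff-1 is counted in both. Of 31 aminoacyl-tRNA synthetase genes 3 (9.68%) were marked at the 5' end and 0 at the 3' end. The shares over all coding genes were 5.28% at the 5' end with a reach of 1000 bp, and 2.52% at the 3' end with 250 bp. The differences between these lists were not tested.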

How the data were processed

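ChIP-seq peak lists on ce11 were analysed from 2 biological replicates of 1 group. Per the deposited README texts, the authors made a candidate list from each replicate's alignment and a shared control file, a pooled candidate list from both alignments, and from these an optimal list by irreproducible discovery rate. The authors deposited a signal value per peak, of unstated scale, and the −log10 of a q-value, which is the same for all optimal peaks and was not used to rank. No source used here names the peak caller, the aligner or the depth. The deposited ce10 lists were not used, nor was any control alignment.

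Nuclear peaks were ranked by signal within each list, and summits were measured to gene ends of the Ensembl 115 annotation of WBcel235 (Python 3.11.15, pandas 2.3.3, Biopython 1.88; proteins aligned globally with BLOSUM 62). The planned measure for ranks and paralogue order was the nearest summit within 1000 bp of the 5' end. The strongest was also taken, and its values in single replicates for the paralogues, like all 3' end comparisons, were added after the data were seen. Annotated 5' ends often mark trans-splice sites. The code that makes the calls was tested on simulated summits at known distances from genes, which does not test the peaks themselves. The members and gene lists were chosen with earlier results of these data known. Named are the 6 members, genes whose 5' ends lie within 1000 bp of a member's optimal summit, pathway genes with an optimal summit, and the 5 genes most like the top-ranked member. Genes at 3' ends, in introns or upstream, and those listed as unmarked, were named after their values were seen.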

Additional observations from a re-analysis of the deposited data

How the results depend on the processing

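The count of 5 eef genes with an optimal summit near the 5' end was 5 at 500 bp, where 772 of 19973 coding genes were called. It was 4 at 250 bp (without eef-1A.1), 4 with upstream summits only and 4 with each summit given to the nearest coding gene. From the top peaks of a single replicate it was 5 in replicate 4 (5.47% of coding genes) and 4 in replicate 3 (5.24%). It was 3 with the stronger 50% of the nuclear optimal peaks, since eef-1B.1 and eef-1B.2 are weak, and 6 with the whole pooled list (45.0%). The count at 3' ends was 3 at 100 bp and 4 at 500 bp. Without summits within 250 bp of any coding 5' end it was 3, when 1.81% of coding genes were marked. From a single replicate it was 3 in replicate 4 (2.32%) and 4 in replicate 3 (2.56%). For the settings without a share beside the count, the share over all coding genes is not given here, so those counts have no baseline.

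Paralogue ratios depended on which summit was taken. For eef-1A.1 over eef-1A.2 the nearest pooled summits gave 1.17, since a weak candidate inside eef-1A.1 is the nearest; the strongest gave 6.69, and replicate 4 alone gave 8.1 and 3.23. For eef-1B.1 over eef-1B.2 these were 4.74 and 1.1 in the pooled list; single replicates ran from 1.11 to 3.54, with 1.29 in replicate 3. No ratio turned around under these settings. Giving each summit to the nearest coding gene takes the upstream summit from eef-1A.1. In replicate 4 that leaves eef-1A.1 without a candidate within 1000 bp, while eef-1A.2 keeps a candidate with a signal of 18.6. The order of that pair in replicate 4 thus turns around by this measure, and no ratio can be formed. Of 25 alternative ranks, 4 differed from the optimal rank by more than 1 SD of the ranks in the 2 replicates, at eef-1A.1 (10963 pooled, 4619 in replicate 3) and eef-1B.2 (17369 pooled, 19865 in replicate 4), where weak candidates lie nearer to the 5' end. That SD is wide, and it comes from the same replicate ranks that it is used to judge. Ranks within it still changed in replicate 4 from 365 to 94 at eef-1A.1, 382 to 120 at eef-2 and 646 to 354 at eef-1G. Several of the 25 could hardly move. The strongest optimal summit was also the nearest, and ranking among all peaks adds only the 21 mitochondrial peaks. The optimal summits nearest to eef-1B.1, eef-1G and eef-2 keep their rank in the pooled list. The count of 4 is thus no measure of stability. The pathway count of 4 was 6 in replicate 4 and 3 in replicate 3. Unknown read depth limits statements on weak candidates. No paired analysis was possible because there is 1 group.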
